A study of Homo sapiens with 4 samples.

Results

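Tubulins and the proteins that bind microtubules were examined as 41 genes of the 18449 in the deposited count table. They comprise 23 tubulin genes, taken as every symbol that starts with TUBA, TUBB, TUBD, TUBE, or TUBG followed by a digit, and 18 named regulators (MAP4, MAP1A, MAP1B, MAP1S, MAP7, MAPT, STMN1, STMN3, MAPRE1, MAPRE2, MAPRE3, CLASP1, CLASP2, and TBCA to TBCE). The symbol rule leaves out TUBB, the main class I beta-tubulin, and TUBAL3, and both are given beside the members. All 41 genes had counts in at least 1 library and were tested.

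BT-16 and CHLA-266 are established cell lines of atypical teratoid/rhabdoid tumors of the MYC subgroup (AT/RT-MYC). Bulk RNAseq was performed on each line untreated and after exposure to 1 µM doxorubicin, 5 µM etoposide, and 1 µM vincristine on consecutive days, which gave 1 library per line and condition, or 2 per condition. According to the study's methods most cells died and the treated libraries were made from cells that grew back over several weeks, so they describe survivors and their progeny, and no drug was tested alone. In the comparison of treatments the cell lines serve as replicates, so that without a block its p values measure the spread between these 2 lines, and no line has a second culture. Total counts were 49849257 to 75087193 per library. SMARCB1, whose loss defines AT/RT, had 827 to 1394 counts in all 4 libraries, so its RNA was not absent, MYC had 6804 to 14275, and the labels place all libraries in 1 batch.

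Microtubules are hollow polymers of alpha- and beta-tubulin dimers, and vincristine binds the beta subunit and blocks their assembly. Gamma-tubulin nucleates new microtubules, tubulin cofactors (TBCA to TBCE) fold and join the subunits, stathmins such as STMN1 sequester free dimers, EB proteins (MAPRE1 to MAPRE3) and CLASPs ride on growing ends, and classical MAPs bind along the lattice. Human cells choose among several alpha and beta isotypes that differ most in the acidic tail at the carboxy terminus, where enzymes add and remove glutamate chains.

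The beta-tubulin genes that carry the results are set beside each other by the DNA of this tail. The lines below show the last 69 coding bases, 22 codons and the stop codon, of the canonical GENCODE 44 transcripts on hg38, each within the last coding exon, with capitals for in-frame glutamate codons.
TUBB, chr6:30724329-30724397, plus strand: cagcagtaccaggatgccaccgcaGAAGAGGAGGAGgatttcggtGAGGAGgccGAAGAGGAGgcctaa
TUBB4B, chr9:137243488-137243556, plus strand: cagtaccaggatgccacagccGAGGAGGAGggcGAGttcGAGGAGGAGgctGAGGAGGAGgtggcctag
TUBB4A, chr19:6495164-6495232, minus strand: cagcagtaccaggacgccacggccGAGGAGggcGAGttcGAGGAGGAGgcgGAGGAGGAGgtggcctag
TUBB6, chr18:12326062-12326130, plus strand: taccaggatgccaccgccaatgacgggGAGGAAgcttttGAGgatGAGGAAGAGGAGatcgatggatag
TUBB2A, chr6:3153863-3153931, minus strand: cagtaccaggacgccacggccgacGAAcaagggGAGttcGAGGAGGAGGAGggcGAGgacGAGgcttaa
TUBB2B, chr6:3224751-3224819, minus strand: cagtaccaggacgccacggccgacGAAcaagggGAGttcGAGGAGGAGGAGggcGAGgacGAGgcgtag
TUBB3, chr16:89935736-89935804, plus strand: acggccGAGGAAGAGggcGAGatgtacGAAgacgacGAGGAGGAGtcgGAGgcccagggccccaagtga

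TUBB2A and TUBB2B differed at 2 of these 69 bases and shared 98.1% of all coding bases. TUBA1A and TUBA1B shared 97.2%. TUBB4A and TUBB4B shared 87.3%, TUBB and TUBB4B 84.4%, and TUBG1 and TUBG2 94.7%. TUBB4B held 10 glutamate codons in its tail, against 9 in TUBB and TUBB4A and 7 in TUBB6. Near-identical stretches limit the counts of some genes. In the canonical transcript of TUBB2A, 55.6% of 100-base windows also occur in another gene, and the shares were 48.7% for TUBB2B, 37.2% for TUBA1B, and 21.2% for TUBA1A. For TUBB3 the share was 92.5%, because an annotated readthrough gene covers it, and for TUBA8 it was 96.3%. TUBB4B (3.01%), TUBB6 (0%), and TUBB4A (0%) were nearly free of such windows. How the authors assigned reads that fit several genes is not given in the sources used here, so values of TUBB2A, TUBB2B, TUBB3, TUBA8, and the TUBA1 genes are uncertain to that extent. The same holds for TUBG1 (15.0%), TUBG2 (13.4%), TUBB8 (32.9%), TUBB8B (43.9%), TUBA3D (21.5%), TUBA3E (20.2%), and TUBA3FP (65.1%), which GENCODE 44 lists as protein-coding. Genes on the opposite strand are a separate limit if strand was not used in counting. They overlapped 35.5% of the exon bases of TUBB1 (ATP5F1E), 21.2% of TUBB6 (AFG3L2), 17.1% of TUBB4A, and 6.09% of TUBB4B. For TUBA1B (TUBA1B-AS1) the overlap was larger than in each of these. Its part in their counts was not tested.

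Per length, a few isotypes made up nearly all tubulin RNA. Levels are given as CPM (counts scaled to library size by TMM) per kilobase of exon. TUBA1A, an alpha-tubulin known for its role in the developing brain, had the highest level of all members, with 1162 before and 675 after treatment for BT-16 and 845 and 603 for CHLA-266. TUBB4B, a widely expressed beta-tubulin, followed with 396 and 122 for BT-16 and 311 and 136 for CHLA-266. Both were highest in the untreated libraries of both lines. Among the members TUBA1B came next, with 53.0 to 185 over the 4 libraries. TUBB, outside the symbol rule, was above TUBA1B in each library, with 72.9 to 265. Among the regulators the tubulin cofactor TBCA was the most abundant by mean level (87.1 to 101), and its range was narrow. At the other end, TUBB1, TUBA3C, TUBA3E, TUBA3FP, TUBA4B, TUBA8, TUBB8, TUBB8B, STMN3, and TBCE lay at or under the 95th percentile of 380 olfactory receptor genes in at least 1 treated library. That percentile, taken as a reference for genes these cells should not use, was 0.0595 and 0.0618 CPM per kilobase in the untreated libraries of BT-16 and CHLA-266 and 0.455 and 0.409 in the treated ones. TBCE (0.428) and TUBB8 (0.379) were under it only in treated BT-16. TBCE had 308 to 408 counts per library.

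**Figure D1:**
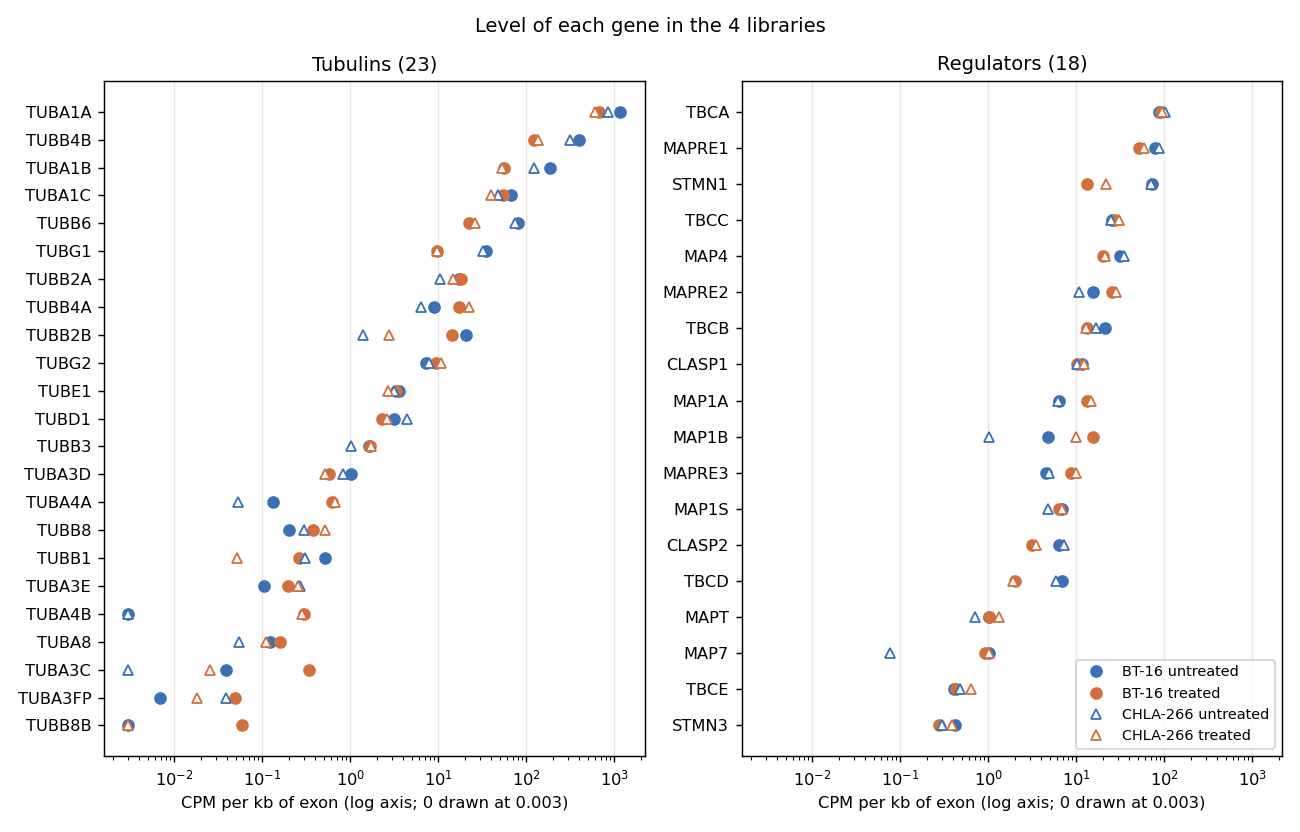
Level of each of the 41 genes in CPM per kilobase of exon on a log axis, with tubulins on the left and regulators on the right, ordered by mean level. Circles mark BT-16 and triangles CHLA-266, blue untreated and orange treated, and values of 0 are drawn at 0.003. TUBA1A, TUBB4B, and TUBA1B lead the tubulins drawn, which leave out TUBB. TUBB2B, MAP1B, and MAP7 show the untreated CHLA-266 library well below untreated BT-16.

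After treatment, 11 of the 41 genes fell and 7 rose in edgeR's quasi-likelihood test at an adjusted p value under 0.05. Lower were 5 tubulins (TUBG1, TUBB6, TUBA1B, TUBB4B, and TUBA1A) and 6 regulators (STMN1, TBCD, CLASP2, MAP4, MAPRE1, and TBCB). Higher were 3 tubulins (TUBA4A, TUBA4B, and TUBB4A) and 4 regulators (MAP1B, MAP1A, MAPRE2, and MAPRE3). Among all 18066 genes tested, 19.1% were lower and 16.1% were higher, against 26.8% and 17.1% of the members, so the share that rose was near that of all genes. The median log2 fold change was 0.206 over the members and 0.239 over all genes. With the cell line as a block, 11 members fell and 7 rose again, with MAP7 in place of TUBA4B among those that rose, beside 23.7% and 17.9% of all genes. In 25 of the 41 genes both libraries of one condition lay beyond both of the other in CPM, a smaller share than the 72.6% of all genes.

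The size of the shift depended on the scaling. The median of all genes moved from 0.239 with TMM to 0.308 (DESeq2 size factors), 0.465 (library totals), and 0.587 (upper quartile), and with the last 2 the split of members became 8 lower and 8 higher, and 7 lower and 10 higher. None of the 18 called genes changed direction under these scalings. Genes of the proliferation list fell in 6 of 6 cases, beside 19.1% of all genes. The summed CPM of the list went from 3458 to 106 in BT-16 and from 3445 to 91.1 in CHLA-266 (MKI67, a marker of cycling cells, from 109853 to 1262 counts and from 96814 to 1386, and TOP2A from 78464 to 2154 and from 70677 to 1826). Their part in the changes of the members was not tested. In these bulk libraries fewer cells of a kind and less RNA per cell cannot be told apart.

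**Figure D2:**
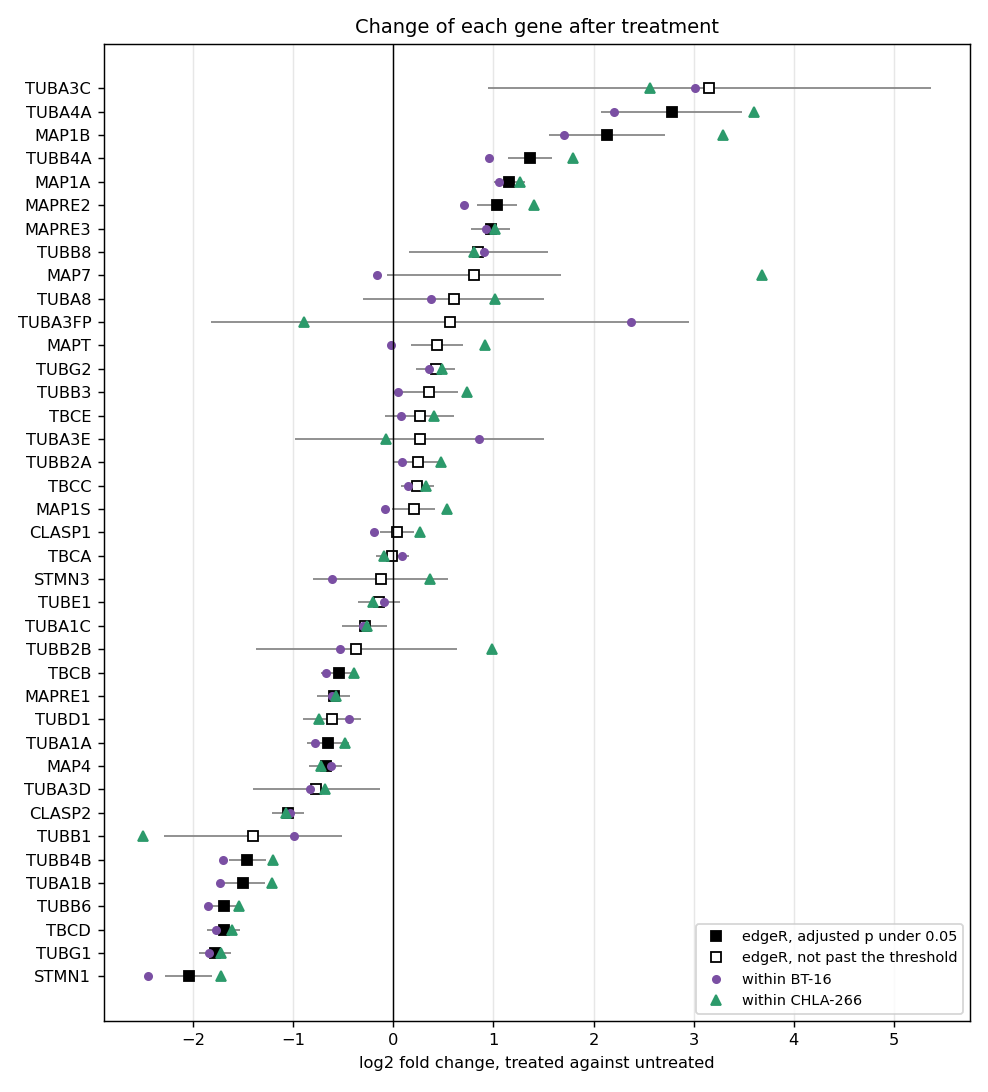
Log2 fold change of 39 genes, treated against untreated. Squares show the edgeR estimate with its standard error (n = 2 libraries per condition), filled where the adjusted p value is under 0.05, circles the ratio within BT-16, and triangles the ratio within CHLA-266 (TMM, 0.5 counts added). TUBA4B and TUBB8B, with 0 counts in both untreated libraries, are left out. The 11 genes called lower lie left of 0 in both lines and the called higher ones right of 0, while TUBB2B and MAP7 show the lines far apart.

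Among the subunits of the microtubule wall, TUBB6 had 21754 counts before and 5045 after treatment for BT-16 and 18266 and 5311 for CHLA-266. TUBB6 is a divergent class V beta-tubulin. Its log2 fold change was -1.69 ± 0.17 (SE, n = 2 libraries per condition, adjusted p = 0.000202 in edgeR), with no overlap between the conditions. TUBA1B, an alpha-tubulin of most cell types, had 45659 and 11557 counts for BT-16 and 26954 and 9849 for CHLA-266. Its level after treatment was 0.354 times that before (SE of 0.22 on the log2 scale, adjusted p = 0.00138, edgeR), and the fall was larger in BT-16 (-1.73) than in CHLA-266 (-1.21), a difference that was not tested. TUBB4B had 55595 and 14357 counts for BT-16 and 38941 and 14349 for CHLA-266, and its log2 fold change was -1.46 ± 0.19 (adjusted p = 0.000738, edgeR). The treated libraries of both lines were alike and the untreated ones were higher. TUBB, outside the symbol rule, behaved likewise in both lines, from 74349 to 17166 and from 54472 to 15607 counts, a log2 fold change of -1.72 ± 0.18 (adjusted p = 0.000252, edgeR).

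TUBA1A had 306443 counts before and 149233 after treatment for BT-16 and 198772 and 119792 for CHLA-266. Its log2 fold change of -0.65 ± 0.21 passed the threshold narrowly (adjusted p = 0.0398, edgeR). The conditions did not overlap in CPM, but the call was lost without untreated BT-16 (adjusted p = 0.248, edgeR) and without treated CHLA-266 (0.0588), with library totals (0.126) and upper-quartile scaling (0.255), and with 3 of the other alternatives. Wherever a library was left out, the lone library of its condition was assumed to vary like the pair of the other condition. Such estimates also hold the difference between the lines. TUBA1C, a close relative of TUBA1B, had 20782 and 14124 counts for BT-16 and 12949 and 9102 for CHLA-266 and did not pass (log2 fold change -0.29 ± 0.23, adjusted p = 0.344). These 3 alpha-tubulin genes lie together on chromosome 12, TUBA1B at 49127782 to 49131397, TUBA1A at 49184686 to 49189080, and TUBA1C at 49188736 to 49274600, where TUBA1A and TUBA1C overlap on opposite strands.

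In the other direction, TUBB4A, a beta-tubulin known from neurons and oligodendrocytes, had 1963 counts before and 3181 after treatment for BT-16 and 1262 and 3695 for CHLA-266. Both treated libraries were above both untreated ones. The log2 fold change was 1.36 ± 0.22 (adjusted p = 0.00227, edgeR), opposite to that of TUBB4B, with ratios of 0.95 within BT-16 and 1.79 within CHLA-266. TUBA4A, a further alpha-tubulin, had 34 and 133 counts for BT-16 and 12 and 128 for CHLA-266. It rose by 2.78 ± 0.71 on the log2 scale (adjusted p = 0.0168, edgeR), at 0.622 and 0.666 CPM per kilobase after treatment, above the olfactory receptor percentile. In untreated CHLA-266 TUBA4A was under that percentile (0.0527 against 0.0618). Without untreated CHLA-266 its log2 fold change was 2.27 (adjusted p = 0.0509), and without untreated BT-16 it was 3.60 (adjusted p = 0.0127).

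TUBA4B, its neighbour on chromosome 2, had 0 counts in both untreated libraries and 29 (BT-16) and 25 (CHLA-266) in the treated ones. Against 3 counts in each untreated library, the mean level was at least 10.7-fold higher after treatment. The adjusted p value was 0.0301 in edgeR and 0.0539 once the cell line was a block, and leaving out any 1 library gave 0.0528 to 0.0792. Its treated levels of 0.297 and 0.285 CPM per kilobase were under the olfactory receptor percentile of those libraries. TUBA4A (219249710 to 219277902, minus strand) and TUBA4B (219253243 to 219272197, plus strand) overlap, and 20.0% of the exon bases of TUBA4A lie opposite STK16 or TUBA4B, so that their reads cannot be told apart if strand was not used in counting. The rise in olfactory receptor reads in treated libraries moved with both genes, and its part in their change was not tested.

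Of the paired beta-tubulin genes on chromosome 6, TUBB2A (3153497 to 3157544) and TUBB2B (3223324 to 3231730), TUBB2B set the cell lines apart. For TUBB2A the difference of CHLA-266 from BT-16 was not called (log2 fold change -0.53 ± 0.17, adjusted p = 0.116, edgeR). TUBB2B, a beta-tubulin of developing neurons, had 5981 counts before and 3477 after treatment for BT-16, but 361 and 602 for CHLA-266. It was thus lower in CHLA-266 in both conditions. Within BT-16 the log2 ratio of treated to untreated was -0.53 (95% interval -0.59 to -0.47), and the CHLA-266 ratio was 0.98 (0.79 to 1.17). These Clopper-Pearson intervals cover counting error only and the difference between the lines was not tested. Over both lines no change was called (log2 fold change -0.37 ± 1.00, adjusted p = 0.785, edgeR), and the estimate was 2.61 without untreated BT-16 and -1.99 without treated BT-16. Each of these sets a single CHLA-266 library against a pair of both lines, so they hold the difference between the lines as well. TUBB2A had 3455 and 3068 counts for BT-16 and 1864 and 2191 for CHLA-266 and was not called (0.24 ± 0.25, adjusted p = 0.451).

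TUBB3, the class III isotype known as a neuronal marker, had 832 counts before and 722 after treatment for BT-16 and 470 and 662 for CHLA-266 and did not pass (log2 fold change 0.36 ± 0.29, adjusted p = 0.36, edgeR). TUBB1, the platelet isotype, had 119 and 50 counts for BT-16 and 63 and 9 for CHLA-266. It was lower in both treated libraries but was not called (-1.40 ± 0.89, adjusted p = 0.242), with an estimate of -2.97 once treated BT-16 was left out. TUBA3D had 111, 52, 80, and 42 counts in the order BT-16 untreated, BT-16 treated, CHLA-266 untreated, CHLA-266 treated (adjusted p = 0.361). The 6 remaining tubulins of this kind (TUBA3C, TUBA3E, TUBA3FP, TUBA8, TUBB8, and TUBB8B) had 0 to 77 counts per library, and none passed in edgeR. TUBAL3 had 4 and 12 counts for BT-16 and 0 and 44 for CHLA-266 (adjusted p = 0.112).

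Levels per length were also summed over each family, and each gene was expressed as a share of that sum. TUBA1A made up 82.6% ± 0.8 (SD, n = 2) of alpha-tubulin RNA in untreated and 86.0% ± 0.5 in treated libraries, and TUBA1B 12.6% ± 0.7 and 7.35% ± 0.36. TUBB4B held 49.97% ± 0.18 of beta-tubulin RNA before and 47.1% ± 2.6 after treatment, a difference of about its spread. The share of TUBB was 34.2% ± 1.0 and 26.9% ± 0.3 and that of TUBB6 11.1% ± 1.4 and 8.80% ± 0.81. TUBB4A held 1.07% ± 0.07 before and 7.16% ± 1.15 after treatment and TUBB2A 1.93% ± 0.36 and 6.01% ± 1.09, with the treated library above the untreated one in both lines. The level of TUBB2A was 17.2 and 18.3 CPM per kilobase for BT-16 and 10.4 and 14.5 for CHLA-266 (not called), while the beta-tubulin sum fell. The share of TUBB2B went from 2.64% to 5.37% in BT-16 and from 0.226% to 1.01% in CHLA-266. That of TUBB3 went from 0.206% to 0.625% and from 0.165% to 0.620%. With 2 against 2 libraries an exact permutation test cannot go below p = 0.333, so that no test was made. Summed alpha-tubulin levels were 1416 and 788 CPM per kilobase before and after treatment for BT-16 and 1016 and 698 for CHLA-266, and those of beta-tubulins with TUBB were 790 and 269, and 623 and 277.

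**Figure D3:**
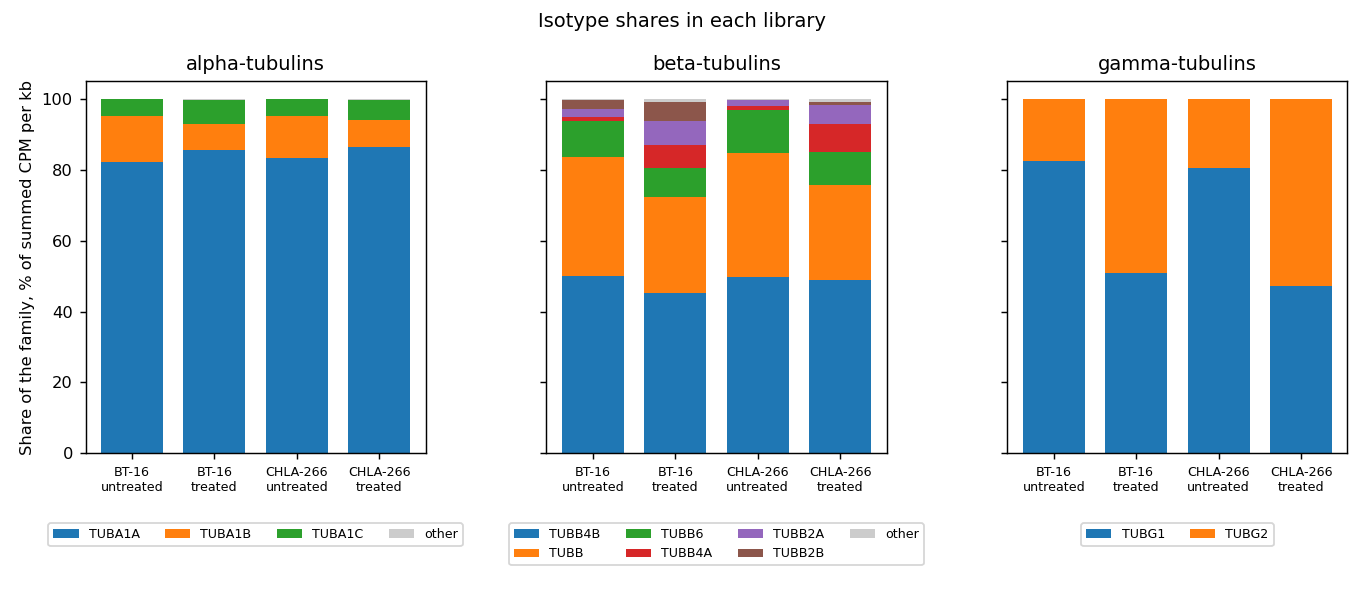
Share of each isotype in the summed CPM per kilobase of its family, in percent, for alpha-, beta- (TUBB included), and gamma-tubulins, with 1 bar per library. TUBA1A keeps over 80% of the alpha family in each library, and TUBB4A, TUBB2A, and TUBB2B take larger shares of the beta family after treatment. TUBG2 goes from 17.5% and 19.5% to 49.2% and 52.8% (with canonical transcript lengths, from a mean of 11.7% to one of 37.8%).

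Of the tubulins outside the microtubule wall, TUBG1, the main gamma-tubulin, had 10306 counts before and 2419 after treatment for BT-16 and 8492 and 2172 for CHLA-266. It fell by 1.78 ± 0.16 on the log2 scale (adjusted p = 0.000101, edgeR), almost equally in both lines (-1.84 and -1.72). TUBG2, its second copy on chromosome 17, had 1413 and 1515 counts for BT-16 and 1333 and 1573 for CHLA-266 and was not called (0.42 ± 0.19, adjusted p = 0.12). TUBG2 passed with library totals (0.0307), upper-quartile scaling (0.0151), and only genes of at least 10 counts per library (0.0389), while TUBG1 remained lower there. TUBG1 therefore made up 81.5% ± 1.4 (SD, n = 2) of gamma-tubulin RNA per length before and 49.0% ± 2.6 after treatment. With the length of the canonical transcripts its mean shares were 88.3% and 62.2%, and those of TUBG2 were 11.7% and 37.8%, so that TUBG2 stayed below TUBG1 there. TUBD1 (718, 442, 901, and 455 counts in the order BT-16 untreated, BT-16 treated, CHLA-266 untreated, CHLA-266 treated) and TUBE1 (1746, 1369, 1355, and 996), the delta- and epsilon-tubulins of centrioles, did not pass (adjusted p = 0.127 and 0.603 in edgeR).

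STMN1, which binds free tubulin dimers, had the largest fitted fall of the 41 genes over both lines, with 31287 counts before and 4801 after treatment for BT-16 and 27546 and 7044 for CHLA-266. The log2 fold change was -2.04 ± 0.24 (adjusted p = 0.000472, edgeR), and the conditions did not overlap. Within CHLA-266 its ratio was -1.72, and that of TUBB1 was lower, at -2.50. STMN3, a related gene of neurons, had 88, 48, 56, and 61 counts in the order BT-16 untreated, BT-16 treated, CHLA-266 untreated, CHLA-266 treated and did not pass (adjusted p = 0.893). Of the cofactors, TBCD, which assembles the dimer with TBCE, had 10917 and 2680 counts for BT-16 and 8360 and 2316 for CHLA-266 (log2 fold change -1.69 ± 0.16, adjusted p = 0.000175, edgeR). TBCB, which receives alpha-tubulin, had 4992 and 2619 counts for BT-16 and 3512 and 2253 for CHLA-266 (-0.55 ± 0.18, adjusted p = 0.0408). The call of TBCB was lost without untreated BT-16 (adjusted p = 0.244), without treated CHLA-266 (0.0894), and with 5 of the other alternatives. TBCA, which holds beta-tubulin, had 18720, 16615, 19374, and 15327 counts, TBCC 2796, 2592, 2444, and 2592, and TBCE 348, 308, 365, and 408, in the same order of libraries. None of these 3 was called (adjusted p = 0.967, 0.275, and 0.56 in edgeR).

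The proteins of growing ends moved in different directions. MAPRE1 (EB1), the most abundant of the 3 EB genes per length, had 13887 counts before and 7614 after treatment for BT-16 and 13884 and 7862 for CHLA-266. It fell by 0.59 ± 0.17 on the log2 scale (adjusted p = 0.024, edgeR), a call lost without any 1 library except treated CHLA-266 (0.0523 without untreated BT-16, 0.0799 without treated BT-16, and 0.124 without untreated CHLA-266) and also with library totals (0.0874), upper-quartile scaling (0.238), and only genes of at least 10 counts per library (0.0695). MAPRE2 (EB2) had 6569 and 8988 counts for BT-16 and 4047 and 9065 for CHLA-266, and its log2 fold change was 1.04 ± 0.20 (adjusted p = 0.00597, edgeR). MAPRE3 (EB3), known from neurons and muscle, had 1139 and 1818 counts for BT-16 and 1106 and 1882 for CHLA-266 and rose by 0.97 ± 0.20 on the log2 scale (adjusted p = 0.00644, edgeR), equally in both lines. Per length, EB1 remained the highest of the 3 after treatment, at 51.4 and 59.1 CPM per kilobase in BT-16 and CHLA-266, against 25.3 and 28.4 for EB2 and 8.67 and 9.98 for EB3. CLASP2 fell from 6698 to 2744 and from 6772 to 2730 counts (-1.05 ± 0.16, adjusted p = 0.00187, edgeR). CLASP1 had 8890 and 6507 counts for BT-16 and 6963 and 7054 for CHLA-266 and was not called (0.04 ± 0.17, adjusted p = 0.875).

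Lattice-binding MAPs also differed. MAP4, a widely expressed MAP, had 32501 counts before and 17678 after treatment for BT-16 and 32563 and 16691 for CHLA-266. Its log2 fold change was -0.67 ± 0.16 (adjusted p = 0.0139, edgeR), and it did not pass without untreated CHLA-266 (adjusted p = 0.0834) or with upper-quartile scaling (0.132). MAP1A and MAP1B are large structural MAPs known from mature and growing neurites. MAP1A rose from 4718 to 8197 and from 4056 to 8214 counts (1.16 ± 0.16, adjusted p = 0.00102, edgeR), with little difference between the lines. MAP1B, at 72107234 to 72209565 on chromosome 5, had 4156 and 11320 counts for BT-16 and 779 and 6433 for CHLA-266. It rose by 2.13 ± 0.58 on the log2 scale (adjusted p = 0.0221 in edgeR and 0.0574 in DESeq2). The estimate was 1.41 without untreated CHLA-266 and 3.66 without untreated BT-16, values that also hold the difference between the lines. MAP1S, the third member of that family, had 2319, 1840, 1457, and 1781 counts in the order BT-16 untreated, BT-16 treated, CHLA-266 untreated, CHLA-266 treated and was not called (adjusted p = 0.461).

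MAPT, the gene of tau, had 1312 and 1086 counts for BT-16 and 798 and 1275 for CHLA-266. The ratio was -0.02 on the log2 scale within BT-16 and 0.92 within CHLA-266, and no change was called (adjusted p = 0.214, edgeR). MAP7 (ensconsin), which recruits kinesin-1, had 383 and 287 counts for BT-16 and 26 and 286 for CHLA-266. Untreated CHLA-266 thus stood apart from the other 3 libraries. MAP7 was not called without the cell line in the model (log2 fold change 0.81 ± 0.87, adjusted p = 0.479, edgeR). It was called with the cell line as a block (1.64 ± 0.62, adjusted p = 0.0341, edgeR). Its estimate was 3.62 without untreated BT-16, which also holds the difference between the lines. Markers of other cell types were counted as well. Of 6 neuronal markers 4 rose (2 with the cell line as a block), beside 16.1% of all genes (17.9% with the block). The summed CPM of the 6 went from 23.9 to 101 in BT-16 and from 18.6 to 40.9 in CHLA-266 (INA, a neuronal intermediate filament, from 625 to 4442 and from 141 to 865 counts, and RBFOX3 from 37 to 136 and from 25 to 136). None of the 6 was at 0 in any library. After treatment RBFOX3, SNAP25, and ELAVL4 were under the olfactory receptor percentile in both lines, at 0.0382 to 0.259 CPM per kilobase. INA was above it, and its CPM went from 9.06 to 76.8 in BT-16 and from 2.29 to 16.6 in CHLA-266. Of 6 macrophage markers 2 rose (CD163 and AIF1), beside the same 16.1% of all genes. Their summed CPM over all 6 was 6.49 and 9.41 before and after treatment for BT-16 and 3.36 and 6.35 for CHLA-266. AIF1 was at 0 in both untreated libraries, CD163 in untreated CHLA-266, and CD14 in untreated BT-16. CD163 was under the olfactory receptor percentile in both treated libraries (0.167 and 0.208 CPM per kilobase), and AIF1 in treated BT-16 (0.376). The calls of RBFOX3, CD163, and AIF1 were lost without treated CHLA-266 (adjusted p = 0.0618, 0.101, and 0.0916 in edgeR), and those of RBFOX3 and CD163 also without untreated CHLA-266 (0.0519 and 0.0713). Their part in the results was not tested.

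The cell lines themselves were compared with the treatment in the model. With 1 library per line and condition, the SEs and p values of this model rest largely on variation pooled over genes. They do not measure the spread of a single gene. TUBB2B was lower in CHLA-266 than in BT-16 by 3.12 ± 0.24 on the log2 scale (log2 fold change -3.12, adjusted p = 2.02e-10, edgeR), and MAP1B likewise (-1.44 ± 0.22, adjusted p = 7.86e-05, but 0.055 among genes of at least 10 counts per library). None of the 41 genes was higher in CHLA-266 at this threshold in edgeR or DESeq2, and 1 was at an unadjusted p value under 0.05. Among all genes 1.46% were lower and 0.836% higher. On the log2 scale (TMM, 0.5 counts added), the difference of CHLA-266 from BT-16 was -2.25 in the untreated and -0.66 in the treated libraries for MAP1B, and for TUBB2B it was -3.88 and -2.38. Both genes were therefore closer between the lines after treatment, with 1 library per value and no test. In both genes the untreated and the treated library of CHLA-266 were each below the BT-16 library of the same condition.

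Promoters of members that moved together were compared by a few short motifs, chosen after the changes were known. Shown are the 120 bases before the start of STMN1, TUBG1, and TUBB4B, which fell in both lines, from RefSeq on GRCh38.p14, with capitals for the CCAAT box on either strand.
STMN1, chr1:25906420-25906539, minus strand: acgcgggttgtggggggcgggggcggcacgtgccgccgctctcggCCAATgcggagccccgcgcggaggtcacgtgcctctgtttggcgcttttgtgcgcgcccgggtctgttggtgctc
TUBG1, chr17:42609563-42609682, plus strand: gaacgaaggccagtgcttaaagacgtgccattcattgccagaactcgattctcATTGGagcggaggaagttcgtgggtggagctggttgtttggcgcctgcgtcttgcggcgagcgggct
TUBB4B, chr9:137241167-137241286, plus strand: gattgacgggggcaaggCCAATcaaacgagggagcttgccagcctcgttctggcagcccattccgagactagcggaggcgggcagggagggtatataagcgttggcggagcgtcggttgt

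The box began 75, 67, and 103 bases before the start of STMN1, TUBG1, and TUBB4B, on the reverse strand in TUBG1. These 3 promoters were picked because they carry the box, and TUBB6, TBCD, TUBA1B, CLASP2, and TBCB, which also fell, had 0 in the 250 bases before the start. In the 250 bases before the start, CCAAT was found on either strand in 6 of 11 members that fell, in 3 of 7 that rose, and in 9 of 21 others with a promoter, which is 46.2% of the 39 members matched by symbol against 33.0% of 27305 promoters of the same length. TTTGAA or TTCGAA (the CHR element) was found in 5.13% of members and 14.6% of all promoters, and GCGGGAA (an E2F motif) in 7.69% and 5.59%. Other spellings of these motifs were not searched, so a promoter without a match may still hold one of them. A match is a description of these letters and not of a bound factor.

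Other genes of the microtubule system, taken from lists outside the 41 genes, gave the following counts in the same edgeR test, beside 19.1% of all genes lower and 16.1% higher. Of 19 genes of the gamma-tubulin ring complex and augmin, 16 fell and 0 rose (1 at an unadjusted p value under 0.05, and 1 in DESeq2 and in the blocked fit), among them PCNT (log2 fold change -1.27 ± 0.17) and CDK5RAP2 (-1.63 ± 0.16), which anchor the complex at centrosomes. Of 10 spindle MAPs, 9 fell and 0 rose (also 0 unadjusted and in DESeq2), including CKAP5 (-1.21 ± 0.16) and TPX2 (-4.22 ± 0.18). Among 25 interphase and neuronal MAPs 9 rose and 2 fell. CLIP1 (0.83 ± 0.22) and CLIP4 (1.04 ± 0.17) had the highest mean CPM, not corrected for length, of those that rose. Those that fell were EML4 (-1.17 ± 0.16) and TACC1 (-1.68 ± 0.19). Among the 9, STMN4, MTUS1, MTUS2, and DCLK1 were under the olfactory receptor percentile in both treated libraries, at 0.112 to 0.358 CPM per kilobase. The call of CLIP1 was lost without untreated BT-16 (adjusted p = 0.119). Of 15 chaperonin, prefoldin, and other folding genes 10 fell and 0 rose (1 unadjusted and with the block, 0 in DESeq2). These include CCT3 (-0.67 ± 0.17) and CCT5 (-1.07 ± 0.16), subunits of the chaperonin that folds tubulin, and CCT3 did not pass without untreated BT-16 (adjusted p = 0.0843). Of 7 severing enzymes 2 fell, among them FIGNL1 (-3.25 ± 0.20), and 0 rose (also 0 unadjusted and in DESeq2). Of 22 tubulin-modifying enzymes 5 fell, such as the tyrosine ligase TTL (-0.56 ± 0.16, a call lost under 6 of 14 alternatives) and TTLL12 (-0.91 ± 0.16). In this list 1 rose (3 with the cell line as a block), AGBL1, with 5 and 180 counts for BT-16 and 2 and 110 for CHLA-266. After treatment AGBL1 was at 0.189 and 0.128 CPM per kilobase in BT-16 and CHLA-266, also under the olfactory receptor percentile.

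**Figure D4:**
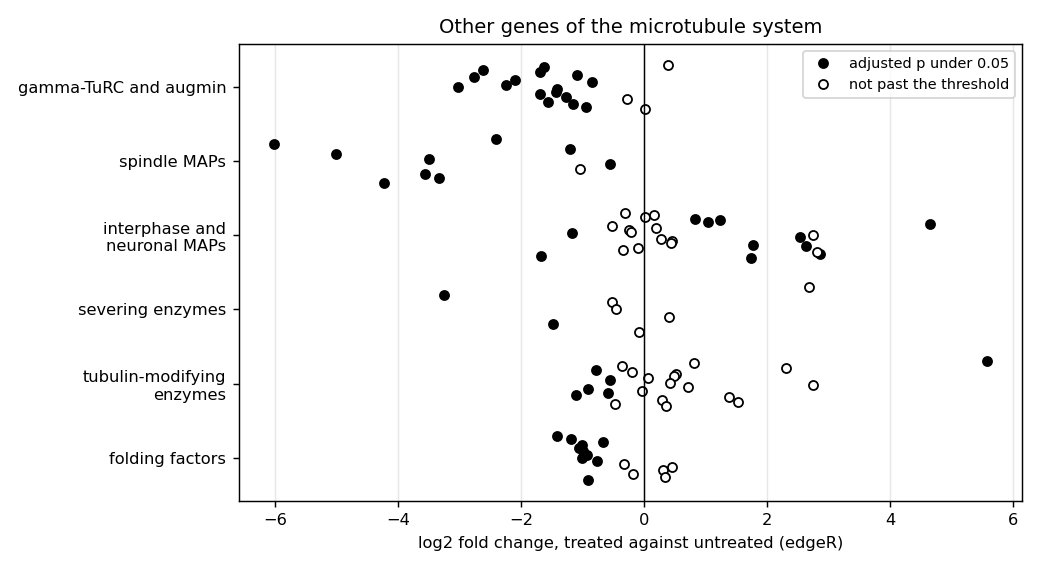
Log2 fold change, treated against untreated, of single genes in 6 lists of the microtubule system (edgeR, n = 2 libraries per condition). Each point is a gene, filled where the adjusted p value is under 0.05. Ring-complex, spindle, and folding genes lie mostly left of 0 (16 of 19, 9 of 10, and 10 of 15 called lower), and interphase and neuronal MAPs lie on both sides (9 higher and 2 lower of 25).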

How the data were processed

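The authors made stranded, paired-end libraries, and trimmed reads were aligned with STAR (hg38) and assigned to genes. The deposited table holds estimated counts, not normalized, in which 5 values were not whole and were rounded. The authors also deposited log2 values from the variance-stabilizing transformation of DESeq2. The annotation, use of strand, and counting of read pairs are not given in the sources used here, so counting intervals may be too narrow. The members and lists were chosen with earlier results of these data known.

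Genes with a total of 0 (383) were left out. The remaining 18066 were tested with edgeR 4.0.16 (quasi-likelihood, TMM, Benjamini-Hochberg, adjusted p under 0.05) in R 4.3.3. The treatment model held no cell line term, and the comparison of cell lines held the condition. SEs were derived from the F statistic. As a pairing check, deviations of a cell line's libraries from the condition means correlated at 0.146 over 16068 genes, and the pairing comes from the cell line itself. The tests were also run on simulated data with a lower dispersion than the 0.14 estimated here for the treatment model. That run therefore cannot vouch for the calls. Alternatives were a cell line block in edgeR, DESeq2 1.42.0 (blocked and unblocked), other scalings and filters, limma 3.58.1 on the log2 values, halved counts, and each library left out. Every member called or with at least 100 counts in a library is given with its counts, and from each other list the 2 genes of highest mean CPM called in each direction. Exon lengths and positions come from GENCODE 44. A gene that this rule names and some coding sequences are not reported here.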

Additional observations from a re-analysis of the deposited data

Results flagged for a closer look

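In 3 genes the treated library lay on opposite sides of the untreated one in the 2 cell lines, with counting intervals of both ratios apart from 0. With 1 library per line and condition the difference was not tested. For TUBB2B the log2 ratio was 1.51 higher in CHLA-266 (0.98) than in BT-16 (-0.53), and both signs held under TMM, library totals, DESeq2 size factors, and upper-quartile scaling. For CLASP1 the ratio was 0.46 higher in CHLA-266 (0.26) than in BT-16 (-0.20), and for TBCA it was lower in CHLA-266, by -0.18 (-0.09 against 0.08). The signs of CLASP1 and TBCA did not hold under all 4 scalings.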

How the results depend on the processing

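Each result was computed again under the alternatives. The number of members lower after treatment was 7 with upper-quartile scaling against 11, and 8 to 12 with a library left out, and the number higher was 5 to 8 with a library left out against 7. The number of members lower in CHLA-266 was 0 with the treatment left out of the model (no replicate block), 5 with DESeq2 size factors, 4 with upper-quartile scaling, 5 with library totals, and 1 with at least 10 counts in every library, against 2. The causes were not tested. Beside MAP7 and TUBA4B, the cell line as a replicate block changed no call among the 41 genes. TUBB2B, not called over both lines, had an estimate of 2.61 without untreated BT-16 and ranged from -1.99 to 2.61 over the libraries left out. Of 58 genes computed again for the treatment (the members with counts given, TUBB, TUBAL3, and the named genes of other lists), 40 were called, and 0 of these changed sign, against 10 of the others. Of all 832 values of single genes, 760 kept their side of the threshold, 53 lost it, 10 gained it, 8 moved, and 1 reversed (TUBB2B). The 8 that moved were differences between the cell lines, for TUBB2B and MAP1B, with a library left out. With the length of the canonical transcript in place of all exons, chosen after seeing the data, the shares in untreated and treated libraries were 84.3% and 88.1% for TUBA1A, 36.2% and 28.2% for TUBB, 42.6% and 39.8% for TUBB4B, 15.2% and 12.0% for TUBB6, 88.3% and 62.2% for TUBG1, and 11.7% and 37.8% for TUBG2, and that of TUBB4A in untreated libraries was 0.991%. With 2 libraries per condition, genes under the threshold are not shown to be unchanged, and members under 10 counts in a library (TUBB1, TUBB8B, TUBA3C, TUBA4B, and TUBA3FP) carry little information.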
